A study of Rattus norvegicus with 24 samples.

Results

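The 6 genes described here belong to the circadian clock or are its direct outputs: Arntl (also called Bmal1, ENSRNOG00000014448), Clock (ENSRNOG00000002175), Per1 (ENSRNOG00000007387), Per2 (ENSRNOG00000020254), Nr1d1 (ENSRNOG00000009329) and Dbp (ENSRNOG00000021027). They were picked by name from the 31998 Ensembl genes of the deposited table, and the gene names come with that choice, since the table pairs no IDs with symbols. All 6 had enough reads to be tested. The samples were plantaris muscles, from the calf, of female rats aged 14 months from generation 19 of the HRT and LRT lines, which were bred for high (HRT) or low (LRT) gains from endurance training. The 4 groups were HRT with functional overload (FO), HRT control (CTRL), LRT with functional overload and LRT control, with 6 libraries each. For overload, the gastrocnemius and soleus muscles were removed unilaterally and the plantaris was taken after 14 days. Where control muscles came from (the other leg or other rats) and the time of day of collection are not in the labels. A p-value here reflects variation among these libraries only, which may be partly technical.

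The clock runs in nearly every cell as a loop of gene activation and repression. ARNTL and CLOCK bind DNA together at E-box sequences and activate Per1, Per2, Nr1d1 and Dbp. The PER proteins then repress ARNTL and CLOCK, NR1D1 (REV-ERB alpha) represses Arntl through sequences called RORE, and DBP activates further genes through D-box sequences. In skeletal muscle the clock is known for timing the use of fat and sugar. Arntl mRNA and the mRNAs of its targets peak at different times of day.

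The promoter windows of the members were searched for these sequences as a description, and a link between matches and levels was not tested. Windows run from 250 bases before to 50 bases after an annotated start and are from RefSeq, build GRCr8, while the counts were made on other builds. All 6 members matched by symbol, with 8 windows. The motifs, read on both strands, were the E-box CACGTG, its variant CACGTT, the D-box TTATGTAA, its variant TTACGTAA and the RORE, an AT-rich stretch that ends in GGTCA. Of 33469 windows of all genes, 6.42% held CACGTG, 4.83% CACGTT, 0.893% TTATGTAA, 0.12% TTACGTAA and 0.852% the RORE. Shown are 3 windows that held a match, with matches in capitals.
Arntl (chr1:176766078-176766377, plus strand): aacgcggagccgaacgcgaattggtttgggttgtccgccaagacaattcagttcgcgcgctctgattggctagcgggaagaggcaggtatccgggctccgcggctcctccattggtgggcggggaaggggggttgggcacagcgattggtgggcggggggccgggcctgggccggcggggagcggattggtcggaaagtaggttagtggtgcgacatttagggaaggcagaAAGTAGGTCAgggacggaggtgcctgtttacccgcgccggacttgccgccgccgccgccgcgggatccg
Per2 (chr9:99496944-99497243, minus strand): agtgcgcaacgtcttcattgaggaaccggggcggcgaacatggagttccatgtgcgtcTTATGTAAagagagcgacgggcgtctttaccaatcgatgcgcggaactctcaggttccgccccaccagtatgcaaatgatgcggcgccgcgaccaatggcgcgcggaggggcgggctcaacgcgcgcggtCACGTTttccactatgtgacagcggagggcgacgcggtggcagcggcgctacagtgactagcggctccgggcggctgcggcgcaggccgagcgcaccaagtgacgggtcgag
Nr1d1, second start (chr10:84229405-84229704, minus strand): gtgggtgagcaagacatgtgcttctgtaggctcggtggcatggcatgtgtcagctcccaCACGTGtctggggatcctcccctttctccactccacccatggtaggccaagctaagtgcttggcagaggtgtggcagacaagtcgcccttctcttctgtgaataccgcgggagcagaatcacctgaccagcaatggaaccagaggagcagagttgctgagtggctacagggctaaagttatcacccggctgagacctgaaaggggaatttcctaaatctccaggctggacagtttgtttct
The Arntl window held a RORE that begins 19 bases before the start. The Per2 window held a D-box that begins 192 bases before the start and an E-box variant that begins 62 bases before it. The second Nr1d1 window held an E-box that begins 191 bases before its start, and the first held an E-box variant on the opposite strand. These letters were not found in the windows of Clock, Per1 and Dbp, which says nothing of sites elsewhere.

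Library totals ran from 26997674 to 34254957 estimated counts, and a member had between 220 counts (Dbp) and 3794 counts (Clock) in a library. Levels are given as CPM, counts relative to library size after scaling by trimmed mean of M values (TMM). Gene lengths were not given, so levels are compared within a gene only. RNA integrity numbers (RIN) averaged 8.97 ± 0.327 in HRT overload, 8.27 ± 0.216 in HRT control, 8.67 ± 0.258 in LRT overload and 8.28 ± 0.147 in LRT control (SD, n = 6 each). RIN ran from 8.6 to 9.4 in HRT overload against 8.0 to 8.6 in HRT control. In LRT it ran from 8.2 to 8.9 against 8.1 to 8.5. A fit with RIN as a covariate therefore cannot fully separate RIN from overload, least of all in HRT. TMM factors also moved with overload. They ran from 1.01 to 1.28 in HRT overload, 0.916 to 0.955 in HRT control, 0.977 to 1.18 in LRT overload and 0.844 to 0.93 in LRT control. The marker genes of muscle and of other cell types could not be looked up without gene names, so the tissue label was not checked.

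The first question was what overload changed in each line. Clock fell in both lines, by 0.34 on the log2 scale in HRT and 0.29 in LRT, while Nr1d1 and Dbp fell in LRT muscle. Arntl, Per1 and Per2 passed the test in neither line. In HRT 1 of 6 members was called (0 higher, 1 lower), where 63.2% of all 16661 genes tested were called (31.9% higher, 31.2% lower). In LRT 3 of 6 members were called (0 higher, 3 lower), against 57.2% of all genes (28.9% higher, 28.3% lower). These shares were not tested against each other. The overloaded and control ranges overlapped for all 6 members in both lines, while 38.4% of all genes in HRT and 32.8% in LRT had no overlap. The median log2 fold change of the members was -0.23 in HRT and -0.27 in LRT, against -0.025 and -0.022 for all genes. Whatever its sign, the median size of the change over all genes was 0.41 in HRT and 0.36 in LRT. In bulk muscle, fewer cells of a type and less RNA per cell cannot be told apart.

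Clock, the DNA-binding partner of ARNTL, was the member that changed in both lines. HRT overload libraries had 76.5 CPM at the lowest, 90.7 at the median and 104.0 at the highest, against 93.7, 118.0 and 125.0 CPM in HRT control. LRT overload libraries had 76.4, 88.2 and 104.0 CPM, against 93.8, 108.0 and 132.0 CPM in LRT control. All 6 overloaded libraries of each line lay below the median of their controls, and the ranges overlapped in part. Its log2 fold change in HRT was -0.34 ± 0.0966 (SE, edgeR adjusted p = 0.0041) and in LRT -0.29 ± 0.0966 (edgeR adjusted p = 0.0128). In size it exceeded the changes of 41.6% of all genes in each line. With libraries scaled by totals alone, the median of all genes moved by 0.27 in HRT and 0.22 in LRT. Clock was then at -0.05 and -0.04 (edgeR adjusted p = 0.675 and 0.712), which is -0.32 and -0.27 relative to the median gene. With RIN as a covariate it was at -0.15 in HRT and -0.2 in LRT (edgeR adjusted p = 0.375 and 0.121). In an edgeR fit of the LRT groups alone it was at -0.24 (adjusted p = 0.0517).

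Arntl, which encodes the other activator, spread more widely and passed the test in neither line. It was at 21.8, 27.5 and 50.5 CPM (lowest, median, highest) in HRT overload, against 25.5, 34.4 and 45.4 CPM in HRT control. LRT overload libraries had 19.9, 24.9 and 39.4 CPM, against 20.2, 31.7 and 46.0 CPM in LRT control. The ranges of overloaded and control muscle overlapped in both lines. The log2 fold changes were -0.22 ± 0.21 in HRT (SE, edgeR adjusted p = 0.377) and -0.25 ± 0.211 in LRT (edgeR adjusted p = 0.327). Without HRT overload replicate 4, the highest of the 24 libraries at 50.5 CPM, the HRT value was -0.42 (edgeR adjusted p = 0.0588), and without HRT overload replicate 6 it was -0.11 (edgeR adjusted p = 0.673).

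Per1 and Per2, whose proteins hold back ARNTL and CLOCK, had uncalled changes of opposite sign. Per2 was at 14.2, 17.2 and 21.4 CPM in HRT overload, against 10.8, 13.2 and 17.9 CPM in HRT control. In LRT it was at 9.62, 20.7 and 23.4 CPM after overload, against 11.5, 18.6 and 25.7 CPM in control. All 6 HRT overload libraries lay above the HRT control median, while the LRT ranges overlapped almost wholly. The log2 fold change of Per2 was 0.38 ± 0.195 in HRT (SE, edgeR adjusted p = 0.0917) and 0.09 ± 0.193 in LRT (edgeR adjusted p = 0.701). The HRT value passed in 1 of 12 fits with 1 library left out, that without HRT control replicate 3 (0.47, edgeR adjusted p = 0.0468). Of 13 other settings, 3 gave an adjusted p under 0.05. These were sample weights in limma-voom (0.52, adjusted p = 0.0188), an edgeR fit of the HRT groups alone (0.4, adjusted p = 0.0289) and scaling by totals. With totals it was at 0.7 (edgeR adjusted p = 0.00708), which was 0.43 above the median gene. An exact permutation test gave p = 0.0411, unadjusted. Per1 was at 25.5, 36.3 and 42.0 CPM in HRT overload, against 30.2, 41.4 and 48.3 CPM in HRT control. It was at 28.2, 41.4 and 52.3 CPM in LRT overload, against 35.4, 45.8 and 58.9 CPM in LRT control. Its log2 fold changes were -0.25 ± 0.155 and -0.18 ± 0.155 (SE, edgeR adjusted p = 0.169 in HRT and 0.331 in LRT).

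Nr1d1, the repressor of Arntl in the second loop, passed the test in LRT and missed it in HRT. It was at 25.6, 32.2 and 36.7 CPM in HRT overload, against 32.8, 38.9 and 45.9 CPM in HRT control. LRT overload libraries had 22.0, 23.8 and 40.8 CPM, against 32.6, 35.5 and 42.9 CPM in LRT control. All 6 HRT overload libraries lay below the HRT control median. In LRT, 5 of 6 overloaded libraries lay below the control median, and replicate 4 at 40.8 CPM lay above it. The log2 fold change was -0.42 ± 0.132 in LRT (SE, edgeR adjusted p = 0.00947) and -0.29 ± 0.132 in HRT (edgeR adjusted p = 0.0553). The HRT value passed in 3 of 12 fits with 1 library left out, among them without HRT control replicate 3 (-0.34, edgeR adjusted p = 0.0343). It passed with sample weights in limma-voom (-0.37, adjusted p = 0.018) and in an edgeR fit of the HRT groups alone (-0.28, adjusted p = 0.0335). With scaling by totals it was at -0.01 and with RIN as a covariate at -0.06. The LRT response minus the HRT response, -0.12, did not pass (edgeR adjusted p = 0.798). The LRT call was lost with scaling by totals (-0.19, edgeR adjusted p = 0.199), where Nr1d1 was at -0.41 relative to the median gene. It was also lost with RIN as a covariate (-0.29, edgeR adjusted p = 0.1). Nr1d1 overlaps Thra in the RefSeq annotation, where Clock and Per2 overlap long non-coding RNA genes. The counting is not stated to use strand, so reads shared by overlapping genes may have been split between them.

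Dbp, a D-box-binding activator and a clock output, had the largest fitted change of the 6 members, and it was in LRT. LRT overload libraries had 9.72, 16.6 and 24.1 CPM, against 17.5, 28.7 and 46.1 CPM in LRT control. HRT overload libraries had 9.74, 19.7 and 21.5 CPM, against 8.44, 16.9 and 22.8 CPM in HRT control. All 6 LRT overload libraries lay below the LRT control median, and LRT control had the highest mean of the 4 groups, with a range that overlapped the others. Dbp fell by 0.8 on the log2 scale in LRT (SE 0.263, edgeR adjusted p = 0.0126). Its value in HRT, 0.14 ± 0.263, did not pass (edgeR adjusted p = 0.651). The LRT call was lost with scaling by totals (-0.56, edgeR adjusted p = 0.093), where Dbp was at -0.78 relative to the median gene, and kept with RIN as a covariate (-0.86, edgeR adjusted p = 0.0267).

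**Figure D1:**
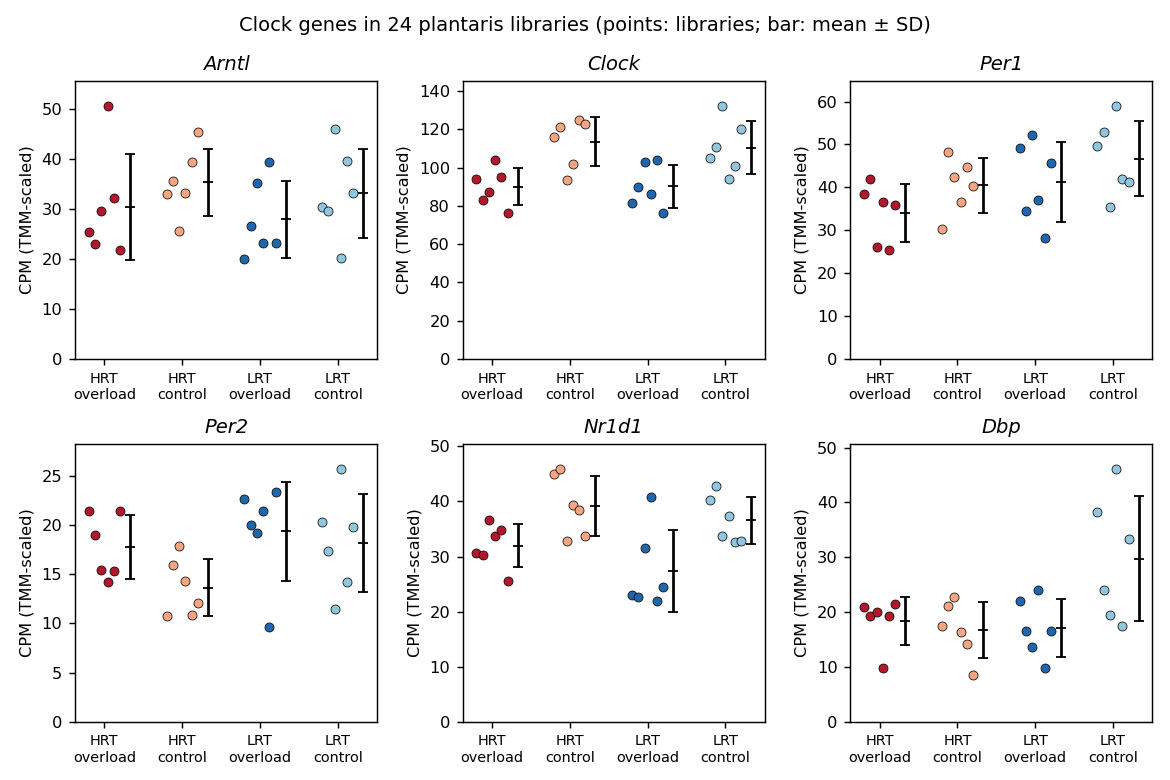
Levels of the 6 genes in CPM (vertical axes, from 0) in each of 24 libraries, by group, with the mean and SD of 6 libraries beside the points. Clock was lower in overloaded than in control muscle of both lines under TMM scaling, and Dbp reached 46.1 CPM in LRT control.

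The next question was whether the lines responded differently to overload, and 0 of 6 members passed this test in edgeR (0.048% of all genes did, 0.024% higher and 0.024% lower). At an unadjusted p under 0.05 it was Dbp alone. Its LRT response minus its HRT response came to -0.94 ± 0.371 in log2 units (SE, edgeR unadjusted p = 0.0186, adjusted p = 0.268), with an approximate 95% interval of -1.72 to -0.17. The other 5 differences lay between -0.29 (Per2) and 0.07 (Per1), with edgeR adjusted p from 0.667 to 0.975. For Clock the difference was 0.04 with an interval of -0.24 to 0.33. DESeq2 and limma-voom also called 0 members.

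The lines were then compared within each state, and edgeR called 0 of 6 members in control muscle (1.97% of all genes, 1.22% higher and 0.75% lower in LRT) and 0 of 6 in overloaded muscle (3.09%, with 1.6% higher and 1.49% lower in LRT). The ranges of the lines overlapped for all 6 members in both states, while 2.65% of all genes in control and 1.56% in overloaded muscle had no overlap. At an unadjusted p under 0.05 there were 2 in control muscle, Dbp and Per2, and 0 in overloaded muscle. In LRT control all 6 libraries were above the HRT control median of Dbp, 16.9 CPM, and 2 of them lay within the HRT control range. The log2 fold change of Dbp, LRT over HRT, was 0.83 ± 0.263 (SE, edgeR unadjusted p = 0.00453, adjusted p = 0.105). An exact permutation test of mean log2 CPM gave p = 0.0281, two-sided and unadjusted. DESeq2 called this difference (0.83, adjusted p = 0.0388), as did limma-voom with sample weights (0.89, adjusted p = 0.0275). Leaving out 1 library at a time gave 0.66 (without LRT control replicate 4) to 0.95 (without LRT control replicate 5), and edgeR adjusted p from 0.0608 to 0.237.

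Per2 differed between control groups by 0.41 ± 0.196 in the same direction (SE, edgeR unadjusted p = 0.0469, adjusted p = 0.292). The other 4 members differed by -0.1 (Nr1d1) to 0.21 (Per1) in control muscle, with edgeR adjusted p from 0.542 to 0.893. In overloaded muscle the 6 differences lay between -0.22 (Nr1d1) and 0.27 (Per1), with edgeR adjusted p from 0.306 to 0.979. Dbp was then at -0.11, with an interval of -0.66 to 0.44.

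**Figure D2:**
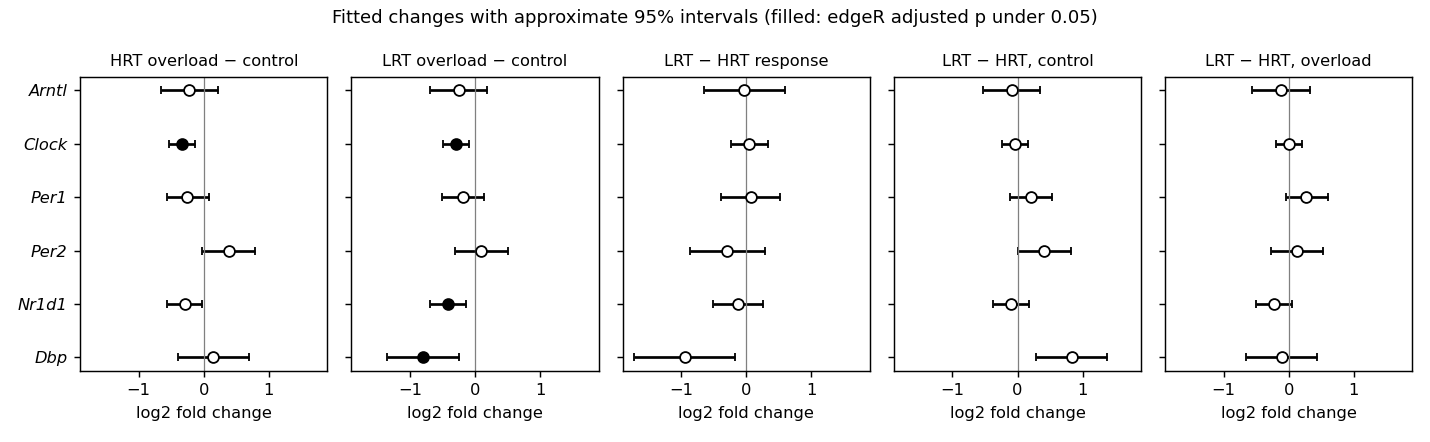
Log2 fold changes of the 6 genes (horizontal axes) in the 5 comparisons, with approximate 95% intervals from the edgeR standard error and filled points where the edgeR adjusted p was under 0.05. Filled points are Clock in HRT and Clock, Nr1d1 and Dbp in LRT, all below 0 under TMM scaling, and the Dbp interval is the widest in each panel.

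Libraries were also compared within each group. Those with the highest or lowest Arntl of a group often had Clock at the same end and Dbp and Per2 at the other. No correlation within a group passed adjustment, which with 6 libraries a single one could not do alone. In HRT overload, replicate 4 had the highest Arntl (50.5 CPM) and Clock (104.0 CPM) and the lowest Dbp (9.74 CPM) and Per2 (14.2 CPM). In LRT overload, replicate 5 had the highest Arntl (39.4 CPM) and Clock (104.0 CPM) and the lowest Dbp (9.72 CPM), Per2 (9.62 CPM) and Per1 (28.2 CPM). The opposite was seen in LRT control replicate 4, with the lowest Arntl (20.2 CPM) and Clock (93.8 CPM) and the highest Dbp (46.1 CPM), Per2 (25.7 CPM) and Per1 (58.9 CPM). HRT control replicate 3 likewise had the lowest Arntl (25.5 CPM) and Clock (93.7 CPM) and the highest Dbp (22.8 CPM) and Per2 (17.9 CPM). HRT overload replicate 6, lowest in Arntl, also matched. HRT control replicate 6 had the highest Arntl and lowest Dbp, but replicate 5 had the highest Clock and replicate 1 the lowest Per2. LRT control replicate 3 had the highest Arntl and Clock and lowest Per2, but replicate 5 had the lowest Dbp. LRT overload replicate 1 had the lowest Arntl, but was not at the ends for Clock, Dbp or Per2.

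Arntl and Dbp ran in opposite directions in all 4 groups. Over the 6 libraries of a group, Pearson's r of log2 CPM was -0.903 in HRT overload (exact permutation p = 0.0292), -0.851 in HRT control (exact permutation p = 0.0389), -0.912 in LRT overload (p = 0.0181, exact permutation) and -0.841 in LRT control (p = 0.0292, exact permutation). Spearman's rho was -0.829, -0.829, -0.943 and -0.771 in these groups (exact permutation p = 0.0583, 0.0583, 0.0167 and 0.103). Adjusted over the 60 correlations computed, for 15 pairs of genes in 4 groups, these p-values were 0.135, 0.151, 0.12 and 0.135 for r and 0.25, 0.25, 0.143 and 0.308 for rho. None passed 0.05. Without the 2 libraries farthest from the group's Arntl median, r was -0.142, -0.435, -0.613 and -0.683. Leaving out extremes of 6 libraries narrows the range by construction. By this measure the HRT overload relation rests on the 2 libraries left out, 1 of which is replicate 4.

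Of the 60 correlations, 17 had an unadjusted exact permutation p under 0.05 and 0 an adjusted one. By Spearman's rho these counts were 8 and 0. With 6 libraries the smallest exact p possible for r is 0.00139, too large for a single correlation to pass adjustment over 60. Even a rho of -1.0, for Clock with Per2 in LRT overload (exact permutation p = 0.00278), had an adjusted p of 0.143. The lack of adjusted calls therefore says little about the relations. The sign of r was kept without the 2 farthest libraries in 45 of the 60. The same sign in all 4 groups was found for Arntl with Clock, with r from 0.74 to 0.92, and for Arntl with Per2, with r from -0.94 to -0.64. It was also found for Per2 with Dbp, from 0.6 to 0.93, and for Per1 with Per2, from 0.45 to 0.83. Clock ran against Per2, from -0.74 to -0.65, and against Dbp, from -0.73 to -0.46, in every group. Nr1d1 had no common sign with any other member, with r from -0.52 to 0.63 for Arntl and from -0.84 to 0.4 for Per2. Per1 had none with Arntl (-0.94 to 0.14), Clock (-0.8 to 0.18) or Dbp (-0.17 to 0.68).

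As a description, each gene was centred on its group means and correlated over all 24 libraries, which share depth and scaling. By this measure Dbp was, of 12228 genes (mean log2 CPM 1 or higher), the gene most opposed to Arntl (r = -0.86), and Arntl was the gene most opposed to Dbp. Per2 ranked 3 from the opposed end for Arntl (r = -0.8). Clock ranked 4 from the other end for Arntl (r = 0.83), and Arntl ranked 2 for Clock. Per2 ranked 4 for Dbp (r = 0.76), and Dbp ranked 4 for Per2. Nr1d1 had r between 0.02 (Arntl) and 0.26 (Dbp), which pool group values of opposite sign. Per1 was also weakly related to Dbp (0.28) and Clock (-0.31). The gene most like Arntl outside the 6 members was ENSRNOG00000004458 (r = 0.85), and for Dbp it was ENSRNOG00000018413 (r = 0.86).

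Scaling by totals left Arntl with Dbp at -0.88, Arntl with Per2 at -0.79 and Arntl with Clock at 0.72. Without the 2 libraries of each group farthest from the median of the first gene, which narrows the range by construction, 16 libraries remained. The values were then -0.49 for Arntl with Dbp, -0.6 for Arntl with Per2, 0.34 for Arntl with Clock, 0.75 for Per2 with Dbp and 0.16 for Per1 with Per2, which was 0.67 over all 24. Clock with Per2 (0.07) and Clock with Dbp (0.14) no longer ran in opposite directions. The relations could not be set against the time of collection, which the labels leave out.

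**Figure D3:**
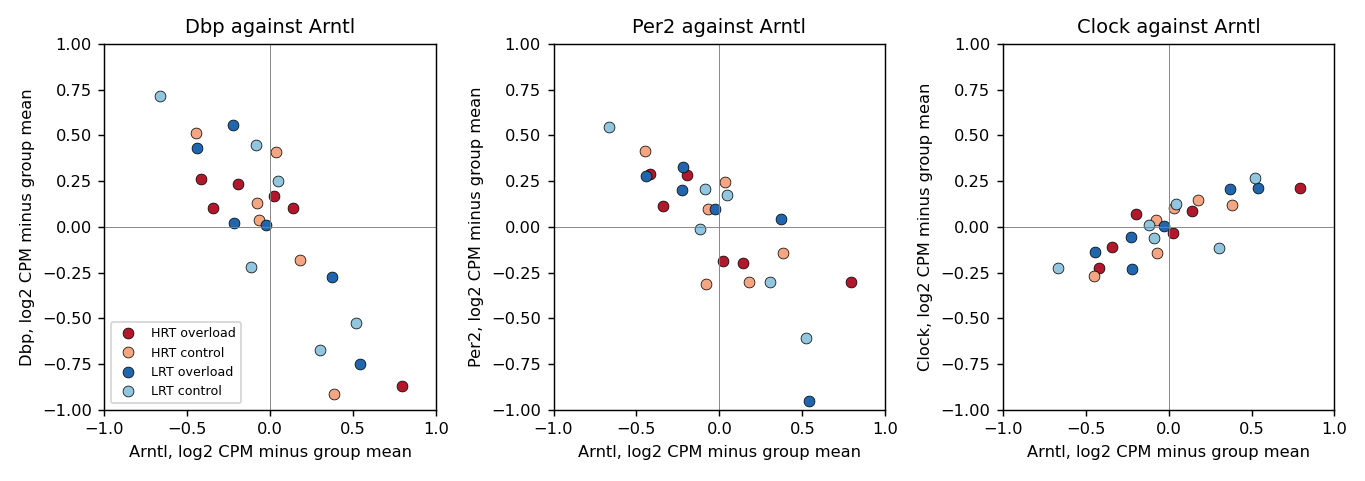
Dbp, Per2 and Clock (vertical axes) against Arntl (horizontal axes) in each of 24 libraries, as log2 CPM minus the mean of the library's group. Within each of the 4 groups, Pearson's r with Arntl was negative for Dbp and Per2 and positive for Clock, which spans a narrower range. None of these correlations passed adjustment, which with 6 libraries a single one could not do alone.

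**Figure D4:**
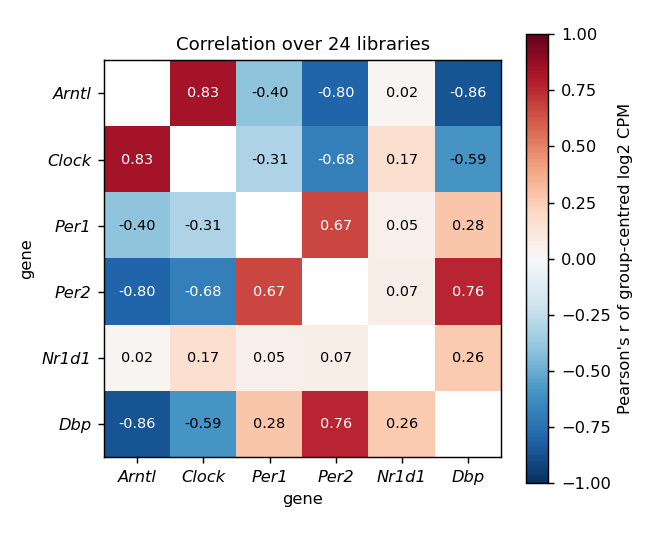
Pearson's r of group-centred log2 CPM over 24 libraries for each pair of the 6 genes, both axes listing the genes and the colour giving r. Arntl and Clock stand against Per2 and Dbp, and Nr1d1 is near 0 with Arntl (0.02), Per1 (0.05) and Per2 (0.07).

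The size of the spread differed among the members. Dbp had the widest range of the 6 over all 24 libraries, 5.46-fold, and ranges of 2.21-fold to 2.7-fold within single groups. Its SD of log2 CPM within a group was 0.432 to 0.558, above that of 80.7% to 90.5% of all genes tested. In HRT overload the SD of Arntl (0.442) was above that of Dbp (0.432), and in LRT overload Per2 (0.477) and Dbp (0.475) were close. With scaling by totals the order in HRT overload turned, with Arntl above 56.9% and Dbp above 84.4% of all genes. Clock had the narrowest range over all libraries, 1.73-fold. Its SDs were 0.155 to 0.182, above that of 25.1% to 49.6% of all genes, and in LRT control Nr1d1 (0.166) was below Clock (0.177). That order also turned with totals, with Clock above 39.2% and Nr1d1 above 50.2% of all genes. Against the 1000 genes nearest in mean level, the Dbp SDs exceeded 92.7% to 98.2% and those of Arntl 95% to 96.4%. Per2 differed by group, with an SD of 0.261 in HRT overload, 0.3 in HRT control, 0.477 in LRT overload and 0.408 in LRT control. These SDs are a description, under TMM scaling unless totals are named, and differences between them were not tested.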

How the data were processed

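Per the labels' protocols, TruSeq libraries were built from total RNA of 24 plantaris muscles. The deposited table holds estimated counts per Ensembl gene, not normalized. Salmon 0.9.1 and 2 genome labels, Rnor_6.0 and rn6, appear in the submitters' processing notes. Annotation and strand setting are not given in the sources used. Groups came from the sample titles.

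Estimated counts were rounded. In R 4.3.3, edgeR 4.0.16 (filterByExpr with a minimum count of 10 and total of 15, TMM, robust quasi-likelihood F-test) fitted all 24 libraries with 1 coefficient per group, and 16661 genes holding 99.95% of counts were tested. P-values were adjusted over them by Benjamini-Hochberg (threshold 0.05). Each SE is the size of the log2 fold change divided by the root of F, and intervals use 20 degrees of freedom. Log2 CPM used a prior count of 2. Permutation tests enumerated all 924 splits or 720 pairings, two-sided. No libraries were duplicates (lowest chi-square per degree of freedom 13.93 over 60 pairs). The model was also run on simulated counts, with changes put into few genes and only in LRT overload. Shifts as wide as those of overload here were not simulated.

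All 6 members are named throughout, with the nearest gene of Arntl and of Dbp. The members, gene lists and tests were chosen with earlier results of these data known. Further clock genes and cell type markers were fixed by symbol and not tested, since 0 IDs matched the name table. Alternatives were DESeq2 1.42.0, limma 3.58.1 and those below. Plots used matplotlib 3.10.9.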

Additional observations from a re-analysis of the deposited data

Results flagged for a closer look

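In 24 series of 6 libraries (6 genes in 4 groups), 2 had a library far from the others by Dixon's test, where chance gives about 1 in 20. Dbp in HRT overload replicate 4 was at 9.74 CPM, and the other 5 libraries of the group lay between 19.2 and 21.5 CPM. Without it, the log2 fold change of Dbp in HRT was 0.27 (edgeR adjusted p = 0.367), and without HRT control replicate 6 it was 0.01 (edgeR adjusted p = 0.987). Per2 in LRT overload replicate 5 was at 9.62 CPM, and the other 5 libraries lay between 19.2 and 23.4 CPM. Each of the 2 libraries had the highest Arntl of its group, at 50.5 and 39.4 CPM.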

How the results depend on the processing

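In HRT overload, where 1 member was called, the count was 4 with sample weights in limma-voom, 0 with RIN, 0 with the replicate block and RIN, 3 with the compared groups alone and 3 by exact permutation (unadjusted). Leaving out 1 library at a time gave 1 to 3, with 2 without HRT overload replicate 3 or HRT control replicate 6 and 3 without HRT control replicate 3. In LRT overload, where 3 were called, it was 0 with scaling by totals, 1 with RIN and 0 with the replicate block and RIN. In control muscle 1 member (Dbp) differed between lines with DESeq2, with sample weights and by exact permutation (unadjusted). In overloaded muscle 1 (Nr1d1, -0.37, edgeR adjusted p = 0.0472) did with scaling by totals, which moved the median of all genes by -0.15 and left Nr1d1 at -0.21 relative to it. Other settings left these counts within 1.5 times, though not always with the same members. With scaling by totals the HRT count stayed at 1, but Clock was lost (-0.05, edgeR adjusted p = 0.675). The member called there was Per2, which was higher (0.7, edgeR adjusted p = 0.00708).

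The replicate block alone gave 1 and 3 called members for overload in HRT and LRT, and it changed no member's call. Of 12 same-numbered pairs, 1 had a correlation of deviations over 0.1 (range -0.098 to 0.127), and in 3 of 12 the own number was the best match, so the numbers were not taken as pairs.

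Signs turned in results that were not called under the main settings, 1 of which (Arntl in HRT overload) was called with sample weights (-0.44, limma adjusted p = 0.0491). With scaling by totals these were Arntl (0.05) and Per1 (0.06) in HRT overload and Per1 in LRT overload (0.05), which relative to the median gene were at -0.22, -0.21 and -0.17 with no turn of sign. They were also Per1 in the difference of responses (-0.01), and Clock (-0.13) and Per2 (-0.04) between lines after overload, which relative to the median gene were at 0.06, 0.02 and 0.11. With RIN they were Per1 in HRT (0.07) and LRT (0.01) overload, Clock (-0.04) and Per1 (-0.06) in the difference, and Clock between lines after overload (-0.07). With the replicate block and RIN they were Per1 in HRT (0.71) and LRT (0.34) overload and in the difference (-0.37), Dbp in HRT overload (-0.0048), and Clock (-0.12) and Dbp (0.01) between lines after overload. In the difference Arntl was at 0.01 with limma-voom and with the replicate block and 0.22 with sample weights, where Per1 was at -0.01. Arntl between lines after overload was at 0.02 with sample weights. The cause was not tested.

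With single libraries left out, signs turned for Per2 in LRT overload (-0.01 to 0.23), for Arntl (-0.16 to 0.17), Clock (-0.0002 to 0.1) and Per1 (-0.01 to 0.15) in the difference, for Arntl (-0.21 to 0.02) and Clock (-0.1 to 0.01) between control groups, and for Arntl (-0.25 to 0.08), Clock (-0.04 to 0.05) and Dbp (-0.24 to 0.01) between overloaded groups.

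Over all genes, overload calls fell to 1557 in HRT and 5183 in LRT with the replicate block and RIN, against 10523 and 9524. The difference of responses had 8 genes, and 1 with DESeq2 size factors, 137 with the DESeq2 Wald test, 2 with limma-voom, 660 with sample weights, 5 with no filter, 5 without robust estimation, 2 with RIN, 1 with the replicate block, 0 with the block and RIN, and 1 to 25 with single libraries left out. Between control groups 328 became 619 with DESeq2, 1004 with sample weights, 206 with no filter and 154 to 495 with libraries left out. Between overloaded groups 514 became 2153 with totals, 1093 with DESeq2, 3990 with sample weights, 307 with no filter, 785 with RIN, 289 with the block and RIN, 115 with the compared groups alone and 171 to 1647 with libraries left out.

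The spread of members within groups, as the median percentile of their SDs, was 73.1 among all genes and 93.3 among the 1000 nearest in level. No pair of members passed the adjusted test with any scaling or with Spearman's rho, where a single pair could not pass alone. Each value rests on 220 or more counts, and the part of depth in the spread was not tested.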

Other observations

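The labels do not say whether same-numbered overload and control libraries of a line share a rat. For Dbp in LRT, the 6 overloaded libraries had the same order as the 6 same-numbered controls (Spearman's rho = 1.0, exact permutation p = 0.00278, the smallest a two-sided test of rho allows here, adjusted p = 0.0334 over 12 tests of 6 genes in 2 lines). Pearson's r was 0.936 (exact permutation p = 0.00556, adjusted p = 0.0667) and 0.888 without the 2 libraries farthest from the median. In HRT it was -0.12 (exact permutation p = 0.722, adjusted p = 0.892). None of the other 10 tests by r had an unadjusted p under 0.05, and in LRT r was 0.692 for Arntl and 0.498 for Per2.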
